A study of Heliconius himera and Heliconius erato lativitta and Heliconius erato petiverana with 18 samples.

Results

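Of 14612 gene IDs counted in pupal wings of 3 Heliconius taxa, 20 stood higher in every wing library of the race Heliconius erato petiverana by at least 2 times over every library of the other taxa, with a limited spread within petiverana. The IDs were chosen by their measured levels in all 18 libraries, with a level taken as 1 plus the plain CPM, the reads of an ID per 1000000 gene reads of its library. An ID was kept where its lowest petiverana level was at least 2 times the highest level among the 12 himera and lativitta libraries, and where its highest petiverana level was under 4 times its lowest. Ranking by the first of these ratios would have allowed 150 IDs, and 20 met both conditions. Petiverana against the other taxa is therefore described here and not tested.

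Messenger RNA had been sequenced from whole forewings (FW) and hindwings (HW) at day 3 after pupation, from animals reared at about 27 °C. The 6 groups were Heliconius himera FW and HW, Heliconius erato lativitta FW and HW, and Heliconius erato petiverana FW and HW, each with 3 libraries numbered 1 to 3. The labels give no treatment for any group, and none of them ties a library to an animal of its own. The p-values thus describe the scatter among these libraries, which may be technical. In bulk wing RNA, fewer cells of a type and less RNA per cell cannot be told apart.

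These butterflies are known for wing colour patterns that differ sharply between close relatives. The race petiverana carries a red forewing band and a yellow hindwing bar, lativitta has the rayed pattern of Amazonian races, and himera is a close relative of H. erato from dry Andean valleys with a yellow forewing band. In the early pupal wing, scale cells differentiate and patterning genes are active before pigment is made. The files pair the IDs with no gene names, so what the 20 genes do was not analysed here, and their positions and sequences are not given.

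Gene reads ranged from 4599197 to 17002996 per library, and from 5126335 to 8250443 in petiverana. Both himera number 1 libraries stood apart from the other himera libraries and lay near petiverana in the measures that follow. Whether they carry the right label cannot be told from the files, and every himera mean below includes them unless they are left out by name. Reads that overlapped more than 1 feature made up 0.653% and 0.715% of their reads, against 1.44% to 1.70% in himera numbers 2 and 3, 1.40% to 1.77% in lativitta and 0.453% to 0.694% in petiverana. In petiverana and himera number 1, 30.7% to 33.7% of gene reads fell on the 10 leading IDs, compared with 8.62% to 12.4% in the other 10 libraries. The median ID tested was 0.77 lower in petiverana than in the other taxa on the log2 scale of 1 plus plain CPM. With libraries scaled by TMM, which sets typical IDs level, that median was -0.01. The gap of 2 times that chose the 20 IDs is wider than these factors could close, so petiverana stays above the rest for all 20 on that scale by construction.

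Summed over the 20 IDs, the share of gene reads was 0.643% to 0.834% in the petiverana libraries, 0.0686% and 0.0705% in himera number 1, 0.0131% to 0.0148% in himera numbers 2 and 3, and 0.0144% to 0.02% in lativitta. The median of the 20 IDs lay at 66.4 to 106 plain CPM in petiverana, above 90.03% to 93.2% of all IDs of the same library. In himera and lativitta it lay at 1.10 to 5.33 plain CPM, above 37.1% to 56.7% of IDs. All 20 were read in every petiverana library, and 15 to 20 in each of the others. No ID was unread in a whole taxon, although 3 had 0 reads in at least 1 himera library and 7 in at least 1 lativitta library.

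The same rule applied to the other taxa gave 13 IDs for lativitta above himera and petiverana, and 1 for himera above the other taxa. Among the 20 petiverana IDs the ratio of the lowest petiverana to the highest other level ran from 2.005 to 42.7, with a median of 2.54. The highest ratio was 5.11 in lativitta and 2.74 in himera. These counts have no test, and the himera number 1 libraries bear on each of them.

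**Figure D1:**
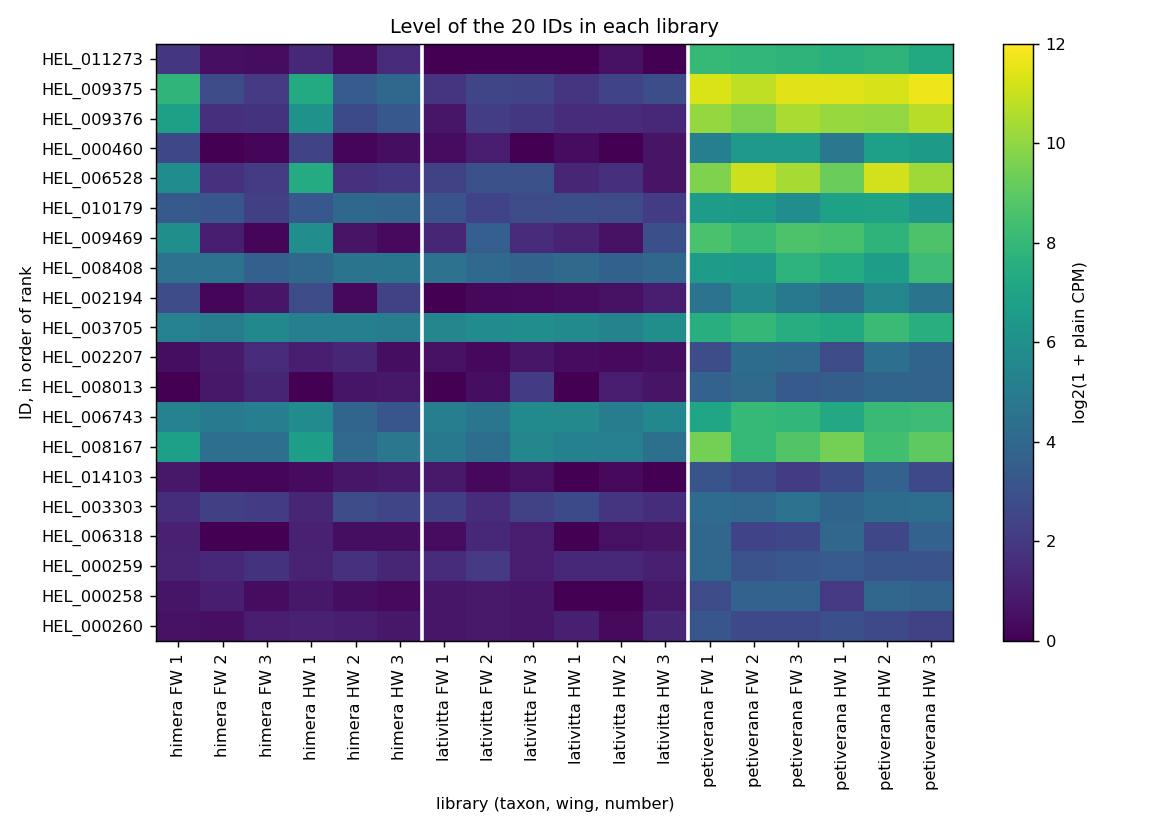
Colours give log2(1 + plain CPM) of the 20 IDs (rows, in order of rank) in the 18 libraries (columns), with white lines between himera, lativitta and petiverana. Every row is brightest in the 6 petiverana libraries, and several rows, HEL_009375 and HEL_006528 among them, are also brighter in himera FW 1 and HW 1 than in the other himera libraries.

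HEL_011273 had the widest gap. Its plain CPM was 260, 245 and 223 in petiverana FW 1, 2 and 3 and 194, 224 and 156.5 in HW 1, 2 and 3. In himera the levels were 2.69, 0.424 and 0.335 CPM in FW and 1.61, 0.235 and 1.70 in HW. The petiverana libraries lay far above both other taxa, with no overlap. In lativitta 5 of the 6 libraries held 0 reads and HW 2 held 2, which makes 2 reads in lativitta and 58 in himera against 8909 in petiverana. The petiverana mean was 217 ± 37.0 CPM (SD, n = 6 libraries), and 1 plus that mean was 101 times the himera value and 203 times the lativitta value. Both ratios are on the scale of 1 plus CPM, which understates the gap of an ID that is nearly unread elsewhere.

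HEL_009375 and HEL_009376 carry consecutive ID numbers, and together with HEL_006528 they were the 3 most abundant of the 20 in petiverana. HEL_009375 stood at 2527, 1818 and 2811 plain CPM in petiverana FW 1, 2 and 3, and at 2731, 2435 and 3287 in HW. Lativitta held 2.63 to 6.18 CPM of it. Himera did not form 1 level, since its number 1 libraries held 233 (FW) and 158 (HW) CPM while numbers 2 and 3 held 3.01 to 15.0. Set on the scale of 1 plus mean CPM, petiverana was 503 times lativitta, 13.2 times himera number 1 and 273.5 times himera numbers 2 and 3. HEL_009376 followed the same order with 798 to 1656 CPM in petiverana, 113 and 69.8 in himera FW 1 and HW 1, 2.12 to 8.84 in himera numbers 2 and 3 and 0.658 to 3.57 in lativitta. The reads of HEL_009376 were 0.417 to 0.511 of those of HEL_009375 in the petiverana libraries and 0.441 and 0.483 of them in himera number 1. The share was more scattered where both were rare, at 0.366 to 0.778 in himera numbers 2 and 3 and 0.25 to 0.76 in lativitta.

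HEL_006528 reached 813, 2144 and 1364 plain CPM in petiverana FW 1, 2 and 3 and 609.6, 2295 and 1265 in HW 1, 2 and 3. Within petiverana, number 2 was highest and number 1 lowest in both wings. Himera number 1 again stood between the taxa, at 56.2 CPM in FW and 165.5 in HW. The other himera libraries held 2.24 to 3.12 CPM and lativitta 0.545 to 6.94.

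An intermediate himera number 1 was shared by other IDs. On plain CPM, 7 of the 20 had both himera number 1 libraries above every other himera and every lativitta library, namely HEL_009375, HEL_009376, HEL_000460, HEL_006528, HEL_009469, HEL_002194 and HEL_008167. None of the 20 had both below. Of 9704 IDs with a mean of at least 1 plain CPM, 973 had both above, and 62.5% had both below. These shares moved with the scaling, and on TMM-normalised CPM it was 15 of the 20 above and 0 below, against 25.1% and 22.2% of the IDs tested. The rule set a ceiling on himera number 1 and fixed petiverana as high, so these counts are a description.

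HEL_009469 gave the widest split among himera libraries. Its plain CPM was 61.9 and 57.9 in himera FW 1 and HW 1, and 0.112 to 0.990 in the other 4 himera libraries. Petiverana held 219 to 404 CPM and lativitta 0.435 to 11.1, so that lativitta lay mostly above himera numbers 2 and 3 and below himera number 1. HEL_008167 showed the pattern at a higher floor, with 110 and 101 CPM in himera number 1, 16.4 to 25.9 in numbers 2 and 3, 18.95 to 44.1 in lativitta and 265 to 711 in petiverana. HEL_000460 held 5.03 and 4.53 CPM in himera number 1 and at most 0.938 in any other himera or lativitta library, against 26.9 to 109 in petiverana. In HEL_002194 the gap was narrow, since himera FW 1 and HW 1 at 5.62 and 5.996 CPM were followed by himera HW 3 at 4.24.

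**Figure D2:**
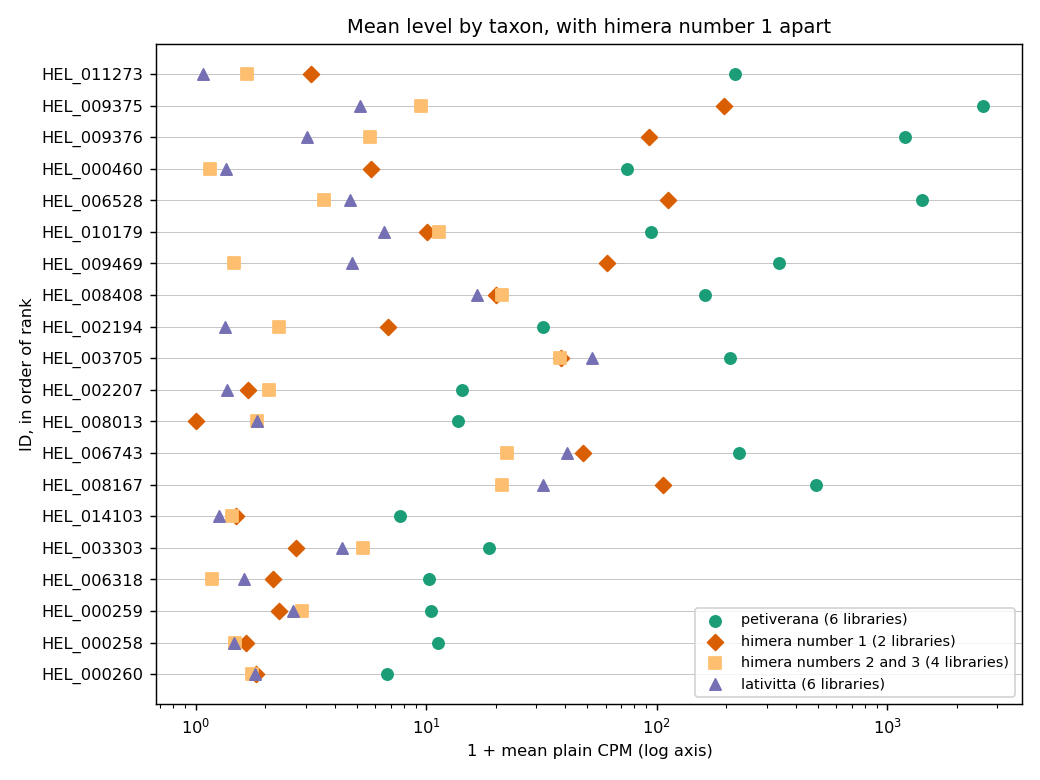
Points give 1 + mean plain CPM on a log axis for each of the 20 IDs (rows, in order of rank), with petiverana, himera number 1, himera numbers 2 and 3, and lativitta drawn apart. The petiverana mean is highest in every row, and himera number 1 lies between it and the rest in rows such as HEL_009375 (196 CPM), HEL_006528 (111 CPM) and HEL_009469 (59.9 CPM).

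Leaving out both himera number 1 libraries let 119 IDs meet the rule in place of 20. All 20 were among them, and 99 were added. In 77 of the 99 the himera number 1 mean was at or above the lowest petiverana library. Across the added IDs the median ratio of himera number 1 to petiverana was 1.24, against 0.146 across the 20 (both on 1 plus mean CPM). The rule held himera number 1 below petiverana in the 20 but not in the added IDs, so this contrast is a description. Without those libraries the ratio of the lowest petiverana to the highest remaining level rose to 113.5 for HEL_009375, 81.1 for HEL_009376, 76.9 for HEL_006528 and 18.2 for HEL_009469, and HEL_011273 then ranked 11 at 58.4.

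In 3 other IDs himera number 1 did not stand apart from the rest of himera. HEL_003705 was the most read of the 20 in himera and lativitta, with 3889 reads. Its plain CPM was 32.2 to 48.3 in himera and 40.2 to 59.05 in lativitta, against 153 to 293 in petiverana. The means were 37.1 ± 6.06, 51.1 ± 8.03 and 207 ± 53.2 CPM (SD, n = 6 libraries each). HEL_008408 stood at 11.8 to 24.7 CPM in himera, 12.2 to 21.6 in lativitta and 86.2 to 295 in petiverana. For HEL_010179 the ranges were 3.91 to 15.0, 3.45 to 7.57 and 57.3 to 118 CPM. In these 3 IDs himera number 1 lay close to himera numbers 2 and 3, with a ratio of 0.892 to 1.01 on 1 plus mean CPM. HEL_006743 differed from them, at 39.45, 29.1 and 33.9 CPM in himera FW and 54.7, 14.2 and 8.24 in HW. Both himera number 1 libraries lay above every other himera library, with a ratio of 2.15 on 1 plus mean CPM. Lativitta held 25.3 to 50.4 CPM of it and petiverana 137 to 294.

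**Figure D3:**
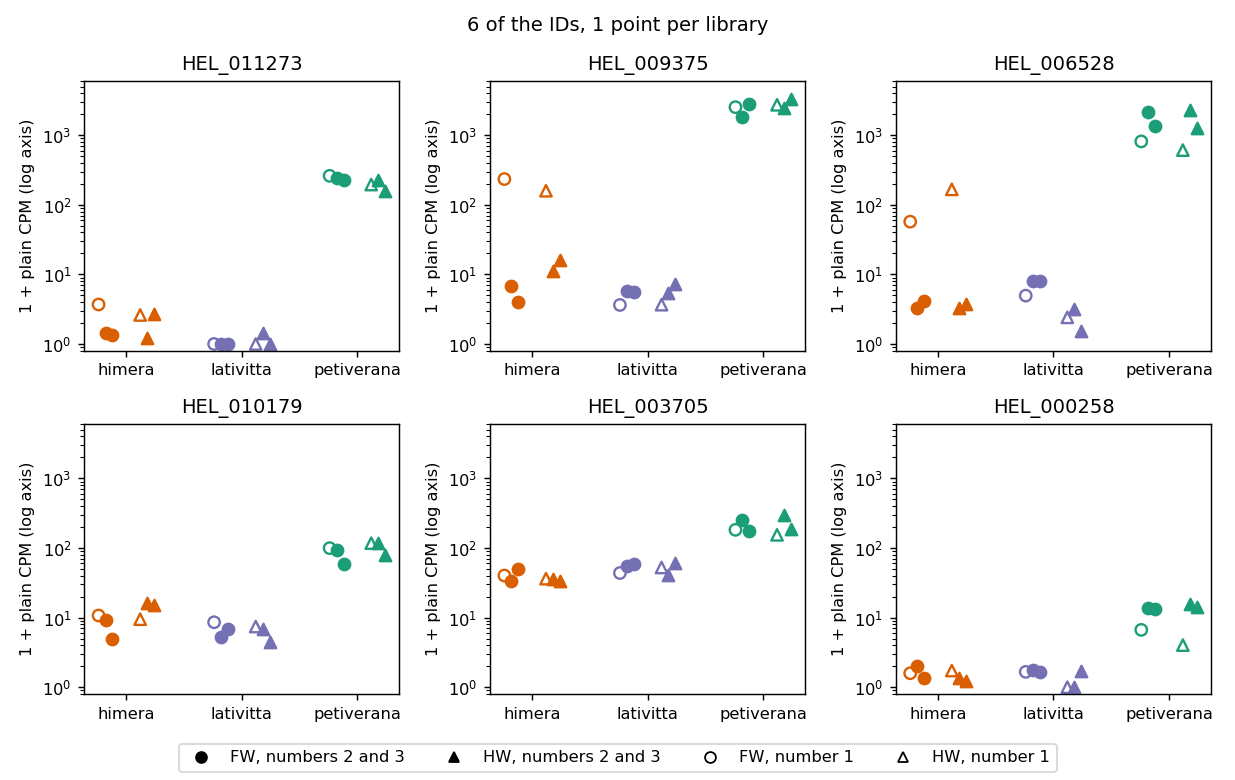
Each point is 1 + plain CPM of 1 library on a log axis, for 6 of the 20 IDs, by taxon, with circles for FW, triangles for HW and open symbols for number 1. HEL_011273 is near the floor in himera and lativitta, HEL_009375 and HEL_006528 show himera number 1 between the taxa, HEL_010179 and HEL_003705 show himera number 1 among the other himera libraries, and HEL_000258 is low everywhere with petiverana number 1 at 5.66 and 3.02 CPM.

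The remaining 8 IDs averaged under 20 CPM in petiverana. Each gap rests on 231 to 730 reads in petiverana and 39 to 337 in the other taxa together. They were HEL_002207, HEL_008013, HEL_014103, HEL_003303, HEL_006318, HEL_000259, HEL_000258 and HEL_000260. HEL_003303 was the most even of all 20 in petiverana, at 13.8 to 22.0 CPM, with 1.46 to 5.59 in himera and 1.88 to 5.49 in lativitta. HEL_008013 was the only ID with 0 reads in both himera number 1 libraries. It was also at 0 in lativitta FW 1 and HW 1, and its petiverana range was 9.61 to 16.6 CPM. HEL_002207 ranged from 5.72 to 20.04 CPM in petiverana and HEL_006318 from 4.36 to 14.6, against at most 1.67 and 1.501 CPM in the other taxa. HEL_014103 held 3.20 to 12.9 CPM in petiverana and at most 0.848 elsewhere, from 279 reads in petiverana and 39 in the other taxa together. HEL_000260 was the least abundant, at 5.76 ± 1.45 CPM in petiverana (SD, n = 6 libraries) against 0.780 ± 0.296 in himera and 0.804 ± 0.424 in lativitta (SD, n = 6 libraries each).

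At the limit of the rule, HEL_000258 and HEL_000260 were the last IDs inside, with ratios of 2.02 and 2.005. HEL_010688 and HEL_005427 were the first outside, at 1.99 and 1.98. HEL_010688 held 307 to 461 plain CPM in petiverana and was kept out by himera HW 1 at 154 CPM. HEL_005427 held 11.0 to 21.5 CPM in petiverana, with lativitta FW 2 at 5.07 CPM.

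ID numbers that follow each other recurred among the 20, with 5 IDs in 3 consecutive pairs. These were HEL_009375 with HEL_009376, and the run HEL_000258, HEL_000259 and HEL_000260. The members of that run did not vary alike within petiverana. HEL_000258 was lower in both number 1 libraries (5.66 CPM in FW, 3.02 in HW) than in numbers 2 and 3 (12.5 to 14.55), whereas HEL_000259 (15.4 and 10.02 against 7.42 to 8.54) and HEL_000260 (8.19 and 6.52 against 3.92 to 5.36) were higher in them. A further 26 IDs, none among the 20, were next in number to one of them and reached 1 CPM in some library. In 4 of these every petiverana library exceeded every other library, as it did in 1.24% of the 11083 IDs that reached 1 CPM. They were HEL_011272 and HEL_011274 on either side of HEL_011273, HEL_008407 next to HEL_008408, and HEL_014104 next to HEL_014103. HEL_011272 averaged 6885 CPM in petiverana and 337.5 in himera and lativitta, and fell outside the rule because petiverana number 1 (15380 and 17860 CPM) was far above numbers 2 and 3 (1801 to 2343). HEL_014104 was at 6.83, 254 and 2325 CPM in petiverana FW 1, 2 and 3 and at 8.11, 407 and 3042 in HW, against at most 1.70 in the other taxa. These neighbours were picked by their number alone, but petiverana against the rest is the contrast that chose the 20, so the counts have no test. Whether adjoining numbers mean adjoining genes was not analysed here.

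Within petiverana the 20 IDs varied by 1.55 to 3.95 times between the lowest and highest library on 1 plus CPM, which the rule held under 4. Both number 1 libraries lay below numbers 2 and 3 for 6 IDs, above them for 4, and overlapped them for 10. Among IDs with a mean of at least 1 plain CPM, 46.5% had number 1 below and 17.7% above. HEL_000460 was low in number 1, at 35.1 and 26.9 CPM against 86.1 to 109 in numbers 2 and 3. HEL_008167 was high in it, at 711 and 709 CPM against 265 to 514. Without both petiverana number 1 libraries 209 IDs met the rule, and all 20 were among them, though 5 of the 20 ranked below the first 150. FW and HW libraries of the same number resembled each other in petiverana, with deviations from the group mean that correlated across IDs at 0.95, 0.87 and 0.89. Number 1 lay far from numbers 2 and 3 in both wings, so numbers 2 and 3 deviate alike whichever way they are paired. These values tie the wings of number 1 and do not settle the pairing of numbers 2 and 3.

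The rule used no wing label, but its limit on the petiverana range covered both wings and so capped any difference between them. The wing values below are those of IDs chosen under that cap, and a count of 0 does not show that the wings were alike. All 20 IDs passed the filter on low counts, which used all 6 groups. In an edgeR quasi-likelihood fit to all 18 libraries, 0 of the 20 passed an adjusted p of 0.05 for HW against FW within petiverana, where 0.0201% of all 9957 IDs did. None had an unadjusted p under 0.05, against 52 of all IDs, and DESeq2 also called 0. The fitted log2 differences ran from -0.24 to 0.61 with a median of 0.07, beside a median of 0.02 over all IDs. The median SE of the 20 was 0.825, larger than every one of these differences. With FW and HW taken as paired by number in a replicate block, the SEs fell to between 0.145 and 0.522, and the edgeR adjusted p was 1 for each of the 20. Averaged over the 3 taxa, 0 of the 20 passed in edgeR (0.0402% of all IDs), with 0 at an unadjusted p under 0.05 and 0 in DESeq2.

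HEL_008408 had the smallest unadjusted p of the IDs higher in HW within petiverana. Its plain CPM was 97.7, 86.2 and 215 in FW 1, 2 and 3 and 167, 104 and 295 in HW, higher in HW in each number although the wings overlapped. HW exceeded FW by 0.61 in log2 units (SE 0.47), with an edgeR adjusted p of 1. Paired by number it was 0.58 (SE 0.25), with an unadjusted p of 0.043 and an adjusted p of 1 in edgeR. Of the IDs lower in HW, HEL_000259 came first, at 15.4, 7.51 and 8.54 CPM in FW and 10.02, 7.79 and 7.42 in HW. HW minus FW was -0.22 in log2 units (SE 0.42), with an edgeR adjusted p of 1, lower in HW in 2 of 3 numbers, and it turned to 0.27 without petiverana FW 1. Paired by number, HEL_011273 had the smaller p of the IDs lower in HW, at -0.27 (SE 0.29), with an unadjusted p of 0.39 and an adjusted p of 1 in edgeR. It was lower in HW in 3 of 3 numbers. On plain CPM 6 of the 20 IDs were higher in HW in all 3 numbers and 3 in none, against 7.40% and 20.5% of IDs with a mean of at least 1 CPM. On TMM-normalised CPM it was 7 of the 20 and 2, against 15.0% and 14.0% of the IDs tested.

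Whether petiverana wings differed otherwise than those of the other taxa was tested as its HW to FW difference against the mean of the himera and lativitta differences. In edgeR 0 of the 20 passed, as did 0% of all IDs, with 0 of the 20 and 53 of all IDs at an unadjusted p under 0.05, and DESeq2 called 0 of the 20. HEL_014103 had the smallest p of the 20 without a block, where the fit gave 1.519 in log2 units (SE 1.002, adjusted p = 1 by edgeR). Its petiverana wings held 7.80, 5.33 and 3.20 plain CPM in FW and 5.57, 12.9 and 5.32 in HW, and overlapped. The differences set against them rested on few reads, 8 in FW and 20 in HW in himera, and 10 and 1 in lativitta. With a replicate block within each taxon, 1 of the 20 and 340 of all IDs had an unadjusted p under 0.05 in edgeR, and the order changed. HEL_002194 then had the smallest p, at -1.68 in log2 units (SE 0.64), with an unadjusted p of 0.0269 and an adjusted p of 1 in edgeR. HEL_014103 was at 1.36 (SE 0.97) there, with an unadjusted p of 0.194 in edgeR. That block also pairs lativitta, whose numbers do not pair its wings. The lativitta wing difference of HEL_002194 rested on 2 reads in FW and 9 in HW.

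**Figure D4:**
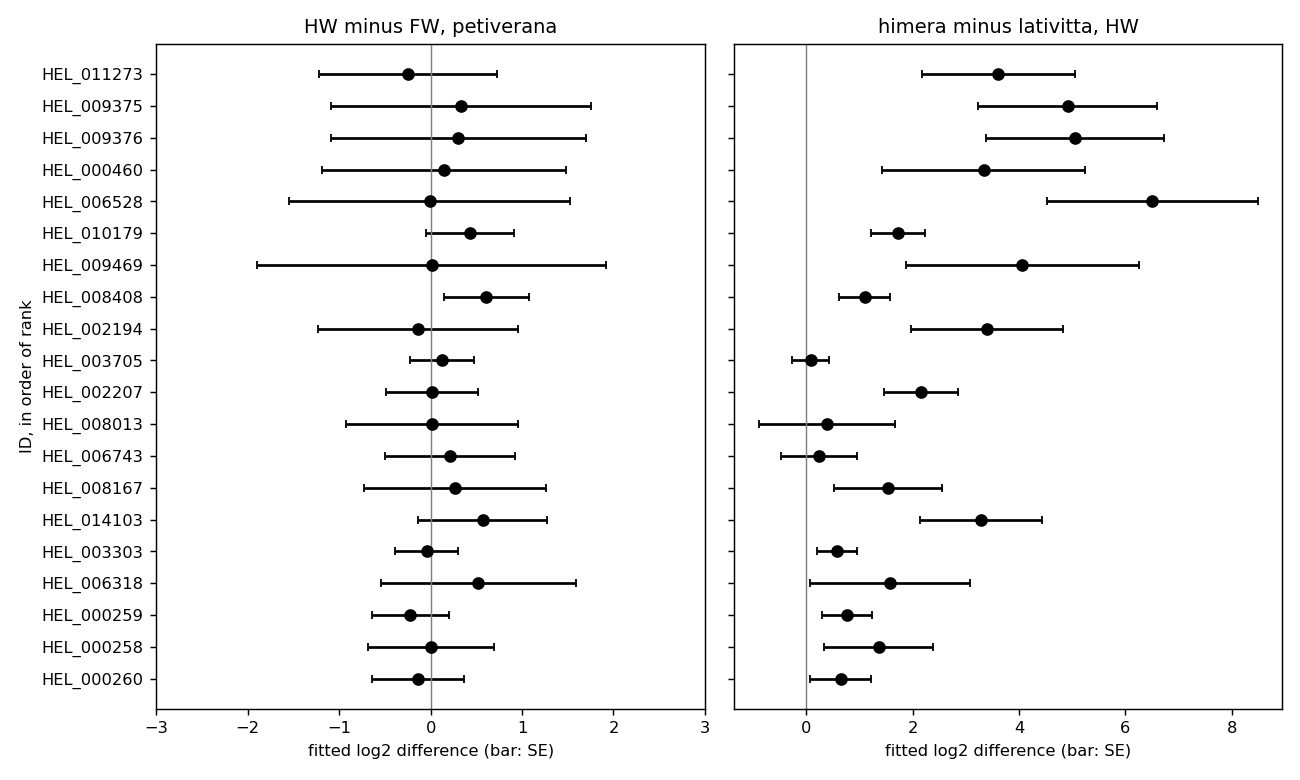
Points give fitted log2 differences with their SE as bars for the 20 IDs (rows), HW minus FW in petiverana on the left and himera minus lativitta in HW on the right. On the left all lie between -0.24 and 0.61, and on the right all lie above 0, up to 6.50 for HEL_006528, although 0 passed the edgeR test in either panel. Without both himera number 1 libraries the HEL_006528 difference on the right was 1.03. The fit of himera and lativitta HW alone kept 10 of the 20 IDs.

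The rule set the same ceiling for himera and lativitta and did not use their order below it, and these taxa were compared next. In edgeR 0 of the 20 IDs passed in FW and 0 in HW, where 0.934% and 1.90% of all IDs did. When only himera and lativitta were fitted, the filter on low counts kept 11 of the 20 in FW and 10 in HW. The rest entered these comparisons through their petiverana reads. None of the 20 passed in that narrower fit, beside 0 of 9103 IDs in FW and 1 of 8915 in HW. An unadjusted p under 0.05 was reached by 5 of the 20 in FW and 9 in HW, against 1992 and 2162 of the 9957 IDs. DESeq2 called 4 of the 20 in FW (11.4% of all IDs) and 4 in HW (12.8%), all higher in himera. In FW these were HEL_011273, HEL_009375, HEL_009376 and HEL_002194, and in HW HEL_009375, HEL_009376, HEL_006528 and HEL_010179. The FW calls of 2 IDs rested on almost no lativitta reads. HEL_011273 had 29 himera FW reads against 0 in lativitta FW, and HEL_002194 had 55 against 2. Of those 55 reads, 48 were in himera FW 1. Without both himera number 1 libraries, the edgeR log2 difference in FW fell from 5.57 to 0.38 for HEL_009375. It fell from 5.295 to 0.20 for HEL_009376 and from 5.06 to 1.99 for HEL_002194. In HW it fell from 6.50 to 1.03 for HEL_006528. The edgeR adjusted p of these 4 was then 0.361 to 0.899. Values without himera number 1 for the other calls are given below.

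The fitted direction was toward himera for 18 of the 20 IDs in FW and all 20 in HW, with medians of 0.92 and 1.65 on the log2 scale, beside 0.07 and 0.08 over all IDs. These counts and medians include the IDs that entered through their petiverana reads. The direction also depended on the scaling and on himera number 1. On plain CPM the himera mean was above the lativitta mean for 11 of the 20 in FW and 17 in HW. On TMM-normalised CPM it was above for 19 and 20. No share over all IDs was counted on either scale, so these counts are a description. Without both himera number 1 libraries, the fit placed 12 of the 20 toward himera in FW (median 0.16) and 15 in HW (median 0.75). The median over all IDs in those fits was 0 in each wing. Over both wings, the plain CPM of himera and lativitta libraries overlapped for all 20 IDs. That count is a description, with no share over all IDs to set beside it.

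HEL_011273 had the smallest p for himera against lativitta in FW, where himera exceeded lativitta by 6.57 in log2 units (SE 1.80; adjusted p = 0.0947 by edgeR), fitted against 0 reads in lativitta FW and so not a bound. It was tested because of its petiverana reads, and the fit of himera and lativitta FW alone did not keep it. Without himera number 1 the difference was 4.33 (SE 1.58, adjusted p = 0.188 in edgeR). HEL_010179 came first in HW, with 8.48, 15.0 and 14.2 plain CPM in himera against 6.43, 5.87 and 3.45 in lativitta. Every himera HW library lay above every lativitta HW library. Himera exceeded lativitta by 1.73 in log2 units (SE 0.51), with an edgeR adjusted p of 0.0896, and it stayed at 1.65 without himera number 1 (adjusted p = 0.0534). Of the 2 IDs placed toward lativitta in FW, HEL_008013 had the smaller p, at -0.32 in log2 units (SE 1.17; adjusted p = 0.912 by edgeR). Its lativitta FW libraries held 0, 0.375 and 3.24 CPM, and without FW 3 the difference was 2.38. The fit of himera and lativitta FW alone did not keep HEL_008013 either.

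The HW calls between himera and lativitta changed when 1 of the 18 libraries was left out, and not for the other 17. Without that library, himera FW 1, 4 of the 20 IDs passed in HW (5.23% of all IDs), namely HEL_009375, HEL_009376, HEL_006528 and HEL_010179, all higher in himera. Without both himera number 1 libraries 3 passed (4.80% of all IDs). Of these HEL_009375 and HEL_009376 were higher in himera by 1.74 (SE 0.40) and 2.21 (SE 0.50), with edgeR adjusted p of 0.0282 and 0.0276, down from 4.92 and 5.06 with all libraries. HEL_006743 was lower in himera by that fit, at -1.73 in log2 units (SE 0.36; adjusted p = 0.018 by edgeR), where all libraries gave 0.24. A block for library number shared by the taxa left 1 ID passing in HW (3.55% of all IDs), HEL_010179 at 1.82 (SE 0.35; adjusted p = 0.0227 by edgeR).

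A measure outside the gene counts moved with the same split of the libraries. In petiverana 30.1% to 37.2% of reads fell outside annotated features, and in the other taxa 25.8% to 28.9%, with no overlap, and himera number 1 was at 25.8% and 26.2%. Since a single list of IDs served every taxon, a taxon's RNA level and how well its reads align cannot be told apart. The part of these shares in the levels of the 20 IDs was not tested.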

How the data were processed

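RNA-seq libraries of whole day 3 wings came as 18 files of raw read counts per gene ID, deposited by the authors without normalisation. The submitters' processing notes list TopHat, DESeq2 and bedtools, with no versions or roles. Neither build, annotation nor strand setting is given in the sources used here. The 5 summary rows per file, 49.4% to 62.4% of reads, were left out of library sizes and tests. Each of the remaining 14612 IDs entered the rule as 1 plus plain CPM, computed in Python 3.11.15 with pandas 2.3.3.

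Tests used R 4.3.3 with edgeR 4.0.16. filterByExpr kept 9957 IDs, TMM factors were 0.522 to 0.74 in petiverana, 0.619 to 1.32 in himera and 1.33 to 1.63 in lativitta, and glmQLFit with glmQLFTest fitted 1 mean per group to all 18 libraries (common dispersion 0.361). Adjusted p is Benjamini-Hochberg over all IDs tested, threshold 0.05. SE was derived from the F statistic. The fit was tested on simulated data. DESeq2 1.42.0, other factors, other filters, left-out libraries, fits of only the groups compared and a replicate block were the alternatives.

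Same-numbered FW and HW libraries deviated together across IDs in himera (0.93, 0.87 and 0.84) and petiverana (0.95, 0.87 and 0.89). They did not in lativitta (0.61, -0.53 and -0.46) or between taxa (-0.16 to 0.07), so numbers do not pair the samples there. In himera, as in petiverana, number 1 lay far from numbers 2 and 3 in both wings. For both taxa the values tie the wings of number 1 and do not settle the pairing of numbers 2 and 3. No 2 libraries of a group agreed within sampling noise (chi-square per degree of freedom at least 16.8). The IDs, lists and tests were chosen with earlier results of these data known. Lists of pigment, patterning, cuticle and ecdysone genes could not be matched, since the IDs carry no names. Named IDs follow a rule of ranks, extremes of level and smallest p. The other IDs among the 20 are named to account for all of them, and IDs next in number were named after their values were seen.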

Additional observations from a re-analysis of the deposited data

Results flagged for a closer look

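Reads outside any annotated feature, which the comparisons of gene IDs do not use, were more frequent in petiverana than in the other taxa. The lowest petiverana library was at 30.12% and the highest library of the other taxa at 28.86%. The part of this difference in the levels of the 20 IDs was not tested. Groups of 3 libraries are too small for a test of single outlying libraries.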

How the results depend on the processing

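The number of IDs that met the petiverana rule was 20, and 35 with TMM-normalised CPM, 32 at a gap of 1.5 times, 8 at a gap of 3 times, 119 without both himera number 1 libraries and 209 without both petiverana number 1 libraries. All 20 were among the 119 and the 209, 15 of them within the first 150 of the 209. It was 15 to 27 with other offsets or no limit on the petiverana range, and 20 to 24 when 1 library was left out. All 20 IDs were included in each set with 1 library left out, but 19 with TMM-normalised CPM, 18 with an offset of 0.5 and 15 with an offset of 2. All counts of wing and interaction calls among the 20 stayed at 0 under every alternative run, the replicate block within each taxon included. Between himera and lativitta, DESeq2 called 4 in FW and 4 in HW, against 0 in edgeR. In HW the count was 3 without both himera number 1 libraries, 1 with the replicate block shared by the taxa, where numbers do not pair the samples, and 0 to 4 when 1 library was left out. The cause of these changes was not tested. HEL_008013 in FW changed sign to 0.175 without both himera number 1 libraries and ran from -1.18 to 2.38 when 1 library was left out, and HEL_000259 between petiverana wings ran from -0.56 to 0.27. Fitting only the groups compared kept 11 and 10 of the 20 IDs for himera against lativitta in FW and HW; for the average over the 3 taxa that fit is the same as the one given. Between petiverana wings the median SE was 0.825 without the block, and the SEs were 0.145 to 0.522 with it, which limits the wing differences that could be detected.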

Other observations

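A further 7 IDs met the gap of 2 times but varied by 4 times or more within petiverana, and were kept out for that reason. They were HEL_010153, HEL_014104, HEL_011183, HEL_009889, HEL_002047, HEL_013277 and HEL_011272, named after their values were seen. HEL_002047 held 24.96 to 158 plain CPM in petiverana, 11.35 and 4.53 in himera FW 1 and HW 1, and at most 1.09 in the other himera and lativitta libraries. HEL_010153 had the widest gap, with at most 0.545 plain CPM in himera and lativitta and 75.3, 459 and 456 CPM in petiverana FW 1, 2 and 3 and 34.0, 644 and 537 in HW. HEL_009889 held 1.75 to 17.6 CPM in petiverana, at most 0.146 in himera and 0 reads in all lativitta libraries. HEL_013277 held 2.07 to 19.4 CPM in petiverana, at most 0.468 in himera and 0 reads in all lativitta libraries. In these 3 IDs, and in HEL_014104, both petiverana number 1 libraries were below numbers 2 and 3. HEL_011183 was the reverse, at 2417 and 2179 CPM in petiverana number 1 and 189 to 261 in numbers 2 and 3, and himera number 1 held 72.3 and 50.9 CPM of it against at most 0.335 in himera numbers 2 and 3.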
